A study of Mus musculus with 2 samples.

Results

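The genes described are the leukocyte surface antigens, lectin-like receptors and integrins of the mouse: protein-coding genes of the RefSeq table for assembly GRCm38.p6 (the assembly behind build mm10) whose symbol is Cd with a number, or starts with Klr, Itga or Itgb and a subunit name. The genes were chosen by symbol, and which of them had a peak was read from the peak list itself, so the counts below describe that list. The rule took 147 of 21900 protein-coding genes. Of these, 144 could be set against the peaks, and Cd99, Klra16 and Klra23 could not, because their coordinates in the table look like those of separate scaffolds: they lie below 3 Mb, where no summit and no promoter entry was found. The 144 comprised 87 CD genes, 27 Klr genes, 27 integrin subunits and 3 genes that the symbol rule took although they encode integrin-binding or related proteins (Itgb1bp1, Itgb1bp2 and Itgb3bp). The data were 1 chromatin immunoprecipitation library with an antibody to H3K9bhb (histone H3 carrying β-hydroxybutyrate on lysine 9) and 1 input library. Both came from spleen cells of C57BL/6 mice carrying the OT-I receptor, a transgenic T cell receptor for an ovalbumin peptide. The cells had 3 days of peptide (200 ng/ml) with interleukin-2 (10 ng/ml), then 4 days of interleukin-15 (10 ng/ml), which gives cultured memory-like CD8+ T cells, and 3 days of β-hydroxybutyrate (BHB). An untreated culture was not analysed here, so each peak is a place called in BHB-treated cells and not a change. With 1 library there is no replicate, and no p-value is given.

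CD numbers name surface molecules by the antibodies that recognise them, and the genes behind them share no common origin or function. Integrins are adhesion receptors built from an alpha and a beta subunit, and memory T cells use them to enter and stay in tissues. The Klr genes encode C-type lectin-like receptors of natural killer (NK) cells, several of which, such as Klrg1, Klrd1 and Klrk1, are also carried by activated and memory CD8+ T cells. H3K9bhb is a histone acylation formed from the ketone body BHB.

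The peak list held 2204 peaks with 2315 summits, a summit being the position where a peak is highest. Each summit carries a score, the authors' −log10 of a p or q value, with a median of 5.04 over peaks. The labels give 70 M reads per library, while the number of reads behind each peak is unknown. With the annotated transcription starts of RefSeq, 1501 peaks (68.1%) lay within 1 kb of the start of a protein-coding gene, and 74.0% of those lay downstream of it.

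Few of the surface genes had an H3K9bhb peak. A summit lay inside the gene or within 5 kb of it for 6 of 144 (4.17%, exact 95% interval 1.54 to 8.85): Cd37, Itga8, Itgae, Cd80, Cd47 and Itgb4, in order of score. Over all 21792 placed protein-coding genes the share was 11.4%. The 6 peaks were separate and each had 1 summit. For 4 of the 6, Cd37, Itga8, Cd47 and Itgb4, no other protein-coding gene had an end nearer to the summit, which is 2.78% of the surface genes (0.762 to 6.96) against 9.31% of all genes. For Itgae and Cd80 another gene's end was nearer. The count moved with the flank, from 5 with none (8.75% of all genes) or with 2 kb (10.7%) to 7 with 10 kb (13.0%). It was 2, Cd37 and Itga8, when the lower-scoring 50% of peaks was dropped (5.79% of all genes), and 3, with Itgae, without peaks scoring 3 or less (9.39%). Intervals cover counting error only and treat genes as independent, which genes of a tandem cluster may not be.

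By role, peaks were found at 2 of 18 integrin alpha subunits, 1 of 9 beta subunits and 1 of 15 adhesion, stem cell and ubiquitous CD genes. Cd37 was both 1 of 11 B cell antigens and 1 of 7 tetraspanins. The T cell receptor complex, co-receptors and costimulation had 1 of 29. That gene was Cd80, a ligand on antigen-presenting cells, whose summit lay outside the gene and nearer to an end of Adprh. Integrin subunits together had 3 of 27 (11.1%, interval 2.35 to 29.2), near the 11.4% of all genes. With Itgae left out because another gene's end was nearer, 2 of 27 remained, against 9.31% of all genes. Integrin subunits were also longer, with a median of 55.9 kb against 17.2 kb for all genes, so the stretch searched per gene was longer. The part of length was not tested. CD genes had 3 of 87 (3.45%, 0.717 to 9.75). The Klr family had 0 of 27, with an exact upper limit of 12.8% (11.1% by the simpler limit of 3 counts in 27), so the interval includes the 11.4% of all genes. The myeloid and dendritic cell antigens had 0 of 22, with an exact upper limit of 15.4% (13.6% by 3 counts). The only gene of lipid antigen presentation in the set, Cd1d1, had no peak, nor had the 3 integrin-binding genes or the 5 remaining CD genes.

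**Figure D1:**
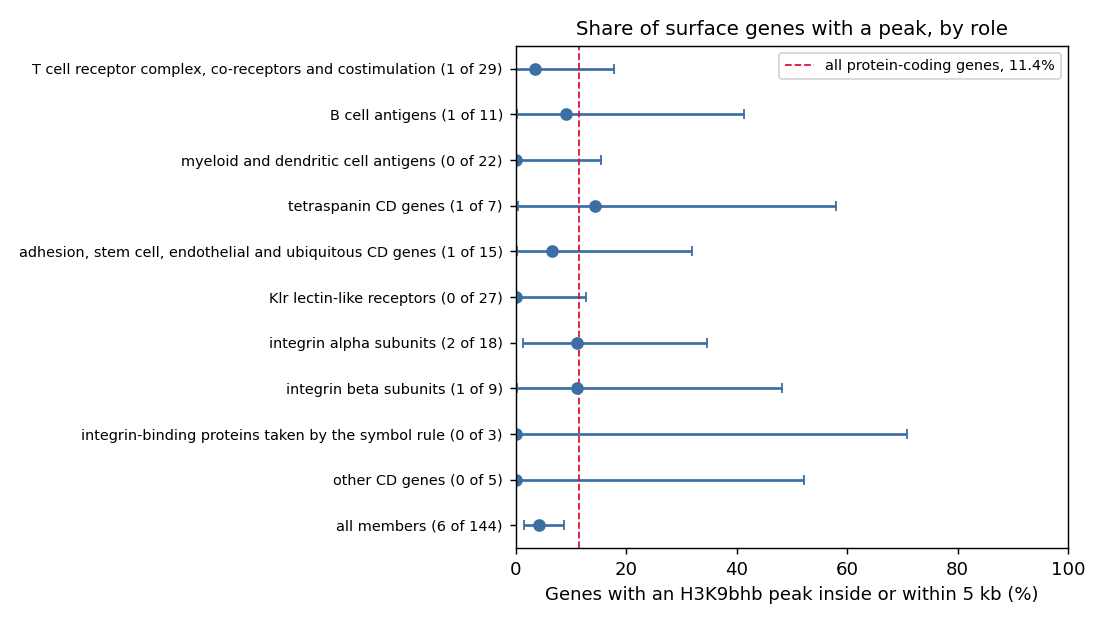
Percentage of genes with a summit inside them or within 5 kb (horizontal axis), for each role of at least 3 genes and for all 144 surface genes. Points are shares, bars exact 95% intervals, and the dashed line is the 11.4% of all protein-coding genes; the whole set lies at 4.17%, the integrin subunits near the line, and the Klr and myeloid genes at 0.

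The sequences that frame these results are the stretches just upstream of transcription starts. Itga8 and Cd47 are shown because their summit lay at their own annotated start, Haspin because its start was the one nearest to the summit inside Itgae, and Cd37 because its peak lay away from the start. Cd8a and Klrk1 are shown as genes of CD8+ T cells without a peak. Each line gives the 250 bases before the start on the gene's own strand, from RefSeq on GRCm38.p6, with the dinucleotide CG in capitals. The positions are chr2:12301945-12302194 (minus strand) for Itga8, chr16:49855404-49855653 (plus) for the first of 2 annotated starts of Cd47, chr11:73138295-73138544 (minus) for Haspin, chr7:45238840-45239089 (minus) for Cd37, chr6:71373177-71373426 (plus) for Cd8a and chr6:129623865-129624114 (minus) for Klrk1.
Itga8: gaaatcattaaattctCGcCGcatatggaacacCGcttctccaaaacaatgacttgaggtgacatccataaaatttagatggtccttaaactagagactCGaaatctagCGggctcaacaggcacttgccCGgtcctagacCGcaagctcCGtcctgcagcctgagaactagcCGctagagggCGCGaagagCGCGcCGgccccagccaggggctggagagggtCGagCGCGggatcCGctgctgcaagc
Cd47: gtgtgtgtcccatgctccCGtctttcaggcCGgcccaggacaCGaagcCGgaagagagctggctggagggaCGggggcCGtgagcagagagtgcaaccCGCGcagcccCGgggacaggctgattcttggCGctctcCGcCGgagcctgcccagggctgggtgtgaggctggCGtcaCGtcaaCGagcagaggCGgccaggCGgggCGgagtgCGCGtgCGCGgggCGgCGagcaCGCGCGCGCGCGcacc
Haspin: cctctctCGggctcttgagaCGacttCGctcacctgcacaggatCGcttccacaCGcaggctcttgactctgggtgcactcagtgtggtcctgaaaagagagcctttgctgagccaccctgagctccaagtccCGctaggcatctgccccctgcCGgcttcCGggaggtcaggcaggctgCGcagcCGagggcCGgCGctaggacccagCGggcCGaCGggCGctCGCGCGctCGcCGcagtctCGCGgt
Cd37: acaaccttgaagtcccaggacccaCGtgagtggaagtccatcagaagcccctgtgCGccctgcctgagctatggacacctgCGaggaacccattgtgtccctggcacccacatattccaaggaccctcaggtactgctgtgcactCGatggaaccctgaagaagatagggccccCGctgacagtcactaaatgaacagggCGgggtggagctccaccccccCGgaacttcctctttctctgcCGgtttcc
Cd8a: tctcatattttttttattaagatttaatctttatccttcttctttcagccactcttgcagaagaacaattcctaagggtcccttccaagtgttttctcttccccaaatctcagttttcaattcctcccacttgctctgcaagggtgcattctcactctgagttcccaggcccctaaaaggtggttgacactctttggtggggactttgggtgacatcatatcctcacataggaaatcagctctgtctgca
Klrk1: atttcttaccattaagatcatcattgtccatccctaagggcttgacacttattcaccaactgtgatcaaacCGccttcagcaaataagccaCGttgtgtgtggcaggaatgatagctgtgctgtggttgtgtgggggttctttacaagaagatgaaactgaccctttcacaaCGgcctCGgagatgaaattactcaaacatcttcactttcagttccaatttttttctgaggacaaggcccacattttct
The printed stretches hold 18 CG dinucleotides for Itga8, 30 for Cd47 and 23 for Haspin, the 3 starts with a summit close by. They hold 8 for Cd37, 4 for Klrk1 and 0 for Cd8a, starts with no summit close by. These genes were chosen with the peak calls known, so the split describes the printed lines and not the surface genes as a whole. Surface genes without a peak can also have CG-rich starts, as given below for Cd164.

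Itga8 had its peak at the transcription start. Itga8 (gene 241226, chromosome 2, 12106632 to 12301985, minus strand) encodes integrin alpha 8, a partner of integrin beta 1 known from kidney development and mesenchymal cells rather than from T cells. The summit at 12301938 lay 6 bp downstream of the annotated start shown above. Its score was 6.63, which placed it in the upper 28.8% of peaks. No other protein-coding gene had an end closer than Mindy3, 45325 bp away, while the long non-coding RNA E030013I19Rik had an end 692 bp from the summit.

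Cd47 (gene 16423, chromosome 16, 49851328 to 49912503, plus strand) encodes an integrin-associated protein on nearly all cells that signals to macrophages not to engulf them. Its summit at 49855614 lay 40 bp upstream of the start whose flank is printed above, and 47 bp upstream of the other annotated start. The position falls within the CG-rich last part of the printed line. The gene's lower-coordinate end in the table is 4286 bp from the summit, so by gene ends alone this peak would not count as lying near one, although it lies at a start. An end of Gm4633, annotated as a miscellaneous RNA, was 568 bp away. The score of 2.53 was low in the list: 85.9% of peaks reached at least that value.

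Itgb4 (gene 192897, chromosome 11, 115974725 to 116008412) encodes integrin beta 4, which pairs with integrin alpha 6 in the hemidesmosomes of epithelia. Its summit at 115975123 lay inside the gene, 398 bp from the lower-coordinate end, and the next gene end, of Sap30bp, was 9589 bp away. The score of 2.29 was the lowest of the 6, a value that 93.1% of peaks reached or passed.

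Cd37 had the highest score of the set, away from its start. Cd37 (gene 12493, chromosome 7, 45233632 to 45239340, minus strand) encodes a tetraspanin of leukocytes, best known from B cells, that organises receptors and integrins in the membrane. The summit at 45234378 scored 10.9, within the upper 4.85% of peaks. It lay inside the gene, 4461 bp downstream of the annotated start and 746 bp from the lower-coordinate end, where this minus-strand gene finishes. The annotated start, at 45238839, is itself inside the span, which reaches 45239340, so the Cd37 stretch printed above also lies inside the span. Tead2, which encodes a DNA-binding partner of the Hippo pathway, ends 910 bp from the same summit, and its annotated start is 18586 bp away. The peak therefore lay where the 3′ ends of these genes face each other, and not at an annotated start of either. The files do not tell which of the neighbours, if either, the peak belongs to.

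The Itgae peak lay at the start of another gene. Itgae (gene 16407, chromosome 11, 73090505 to 73147449) encodes integrin alpha E, or CD103, which with integrin beta 7 holds tissue-resident memory CD8+ T cells at epithelia by binding E-cadherin. Its summit at 73137961 scored 4.22, a value reached by 65.4% of peaks. The summit lay inside Itgae but 9488 bp from its nearer end. Haspin (73135484 to 73138294, minus strand), a gene within Itgae that encodes a mitotic histone H3 kinase, has its start 333 bp upstream of the summit. By distance this is a peak at the Haspin start that is counted for Itgae because the genes overlap.

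Cd80 (gene 12519, chromosome 16, 38457430 to 38495958, plus strand) encodes the ligand on antigen-presenting cells for the T cell receptors CD28 and CTLA-4. The summit at 38452753 was 4677 bp outside the gene and 6180 bp upstream of its annotated start. It lay 64 bp from an end of Adprh (38445399 to 38452689), which encodes a hydrolase that removes ADP-ribose from arginine. Its score was 2.77, which 84.5% of peaks reached.

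**Figure D2:**
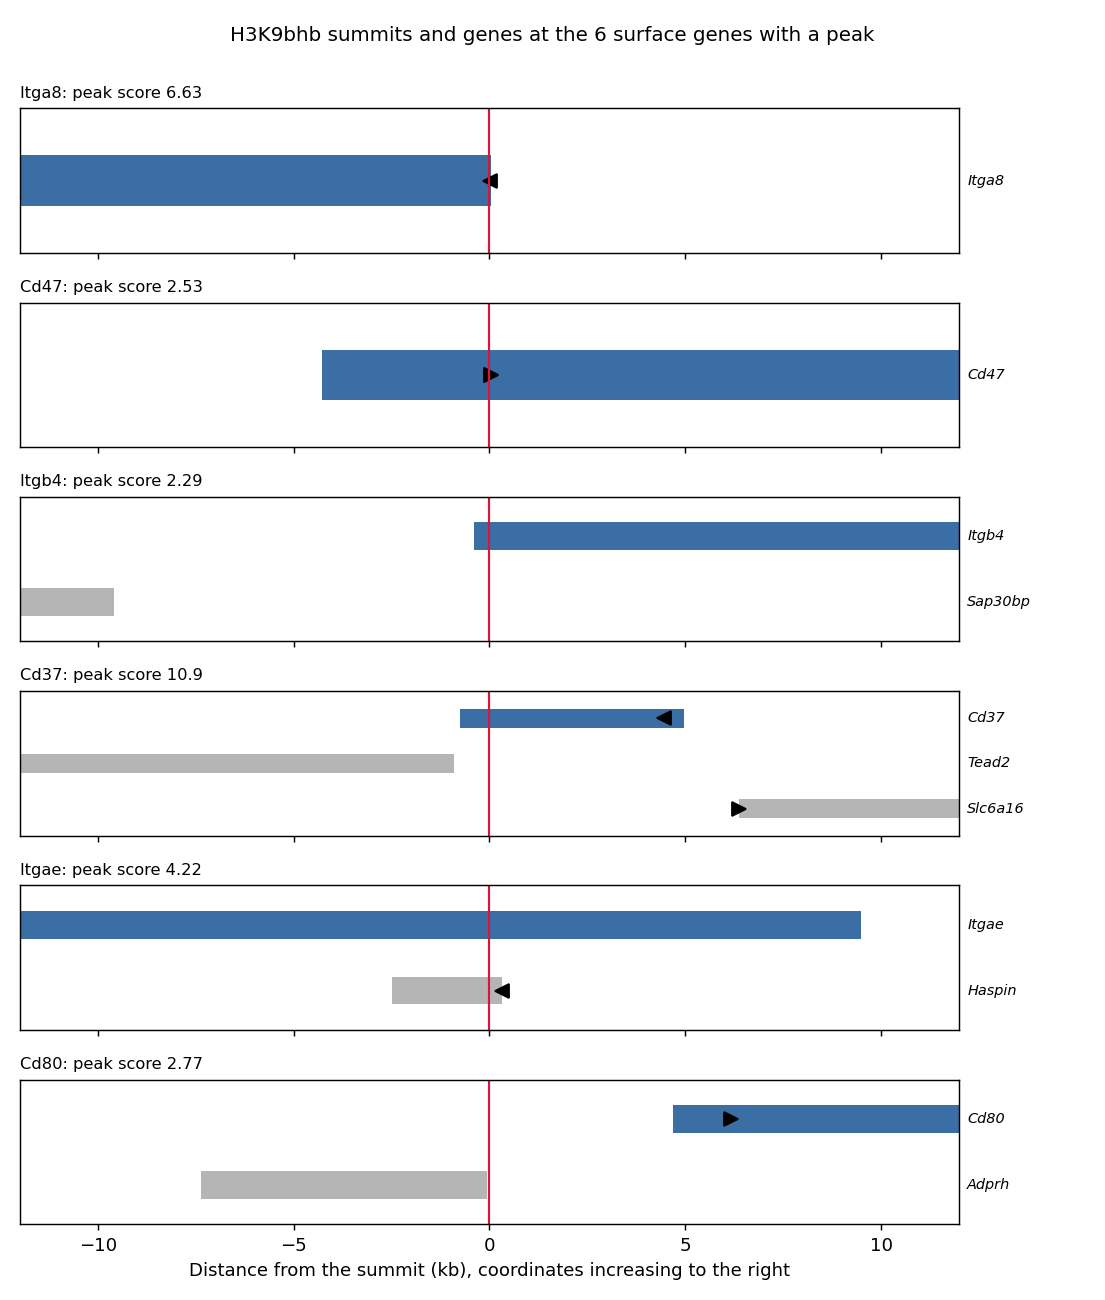
Genes within 12 kb of the summit at each of the 6 surface genes with a peak, plotted as distance from the summit in kb (red line at 0). Blue bars are the surface genes, grey bars their protein-coding neighbours, and arrowheads mark annotated starts and point along the gene where RefSeq starts were supplied; the summit meets a start of Itga8, Cd47 and Haspin, and lies near the facing ends of Cd37 and Tead2.

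Counted by annotated starts, 2 of the 109 surface genes with a promoter entry (1.83%, interval 0.223 to 6.47) had a summit within 1 kb of a start, Itga8 and Cd47, against 9.18% of the 17492 protein-coding genes with an entry. Of the 6 summits, 5 (83.3%, 35.9 to 99.6) had some protein-coding gene end within 2 kb, as had 82.5% of all summits. Counted by ends of the surface gene itself, 3 of 144 (2.08%) had a summit within 2 kb, Cd37, Itga8 and Itgb4, against 9.45% of all genes.

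The 5 kb limit fell in a sparse stretch of distances. Cd80, at 4677 bp, was the farthest gene inside it, and Cd164l2, a relative of the sialomucin gene Cd164, was the closest outside it, at 8394 bp from a summit that lay 121 bp from an end of Gpr3. The next were Itgb2 at 14695 bp and Cd68, a macrophage lysosomal glycoprotein, at 15657 bp. Itgb2 encodes the beta 2 subunit shared by the leukocyte integrins such as LFA-1. The summit closest to it scored 13.4, the one near Cd68 scored 2.74, and they lay 1290 bp from Fam207a and 257 bp from Senp3. In all 3 cases the end of another gene was nearer.

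The genes listed for CD8+ T cells had no peak other than the one inside Itgae, and their distances to a summit lay on both sides of the 219 kb median of all genes. The co-receptor genes Cd8a and Cd8b1 were 329 and 366 kb from the nearest summit. Cd3d, Cd3e and Cd3g, neighbours on chromosome 9 that encode signalling chains of the T cell receptor complex, were 152, 129 and 158 kb away, and Cd247, the zeta chain, was 132 kb away. The adhesion receptor Cd44 was 1070 kb away and the early activation marker Cd69 905 kb. Itgal, the alpha subunit of LFA-1, was 62.8 kb away. The 11 listed CD8+ T cell markers were Cd8a, Cd8b1, Cd3d, Cd3e, Cd3g, Cd247, Cd2, Cd5, Cd6, Cd27 and Cd28. Most of these are general T cell genes and not particular to CD8+ cells. All 11 lacked a peak (0 of 11, exact upper limit 28.5%, or 27.3% by 3 counts, against 11.4% of all genes with a peak). So did the 2 CD4+ T cell, 5 B cell, 6 myeloid, 5 NK cell, 3 platelet and 2 endothelial markers. The 11 markers therefore gave the same count of 0 as those listed for other cells. A peak list does not measure expression, so the label could not be checked in this way.

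Distances to the nearest summit were wide, and how they compared with all genes turned on the Klr cluster. The median was 272 kb over the 144 surface genes (quartiles 93.6 and 767 kb) and 219 kb over all genes (52.7 and 712 kb), but 212 kb for the 117 surface genes outside the Klr family. A distance over 1 Mb was found for 31 surface genes (21.5%), against 18.5% of all genes; 20 of the 31 were Klr genes, and of the other 117 surface genes 11 (9.4%) were that far. The gene farthest from a summit was Cd226, an activating receptor of T and NK cells, at 4490 kb. Gene length differed little over the whole set, with a median of 18.6 kb for the surface genes and 17.2 kb for all genes. The integrin subunits were longer, at 55.9 kb.

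**Figure D3:**
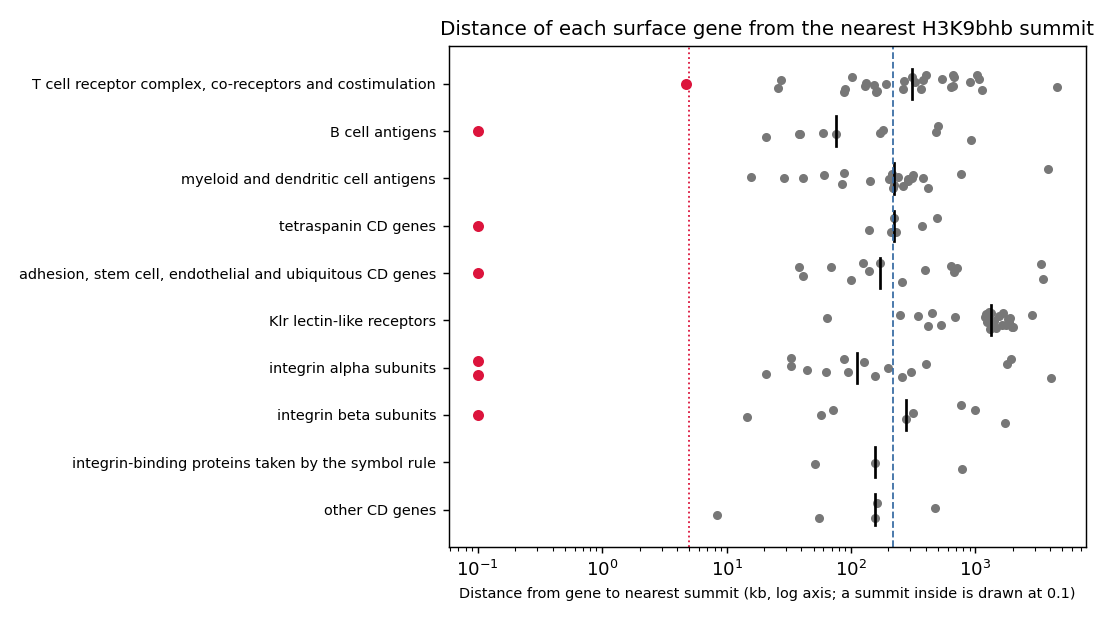
Distance from each surface gene to the nearest H3K9bhb summit in kb on a log axis, by role; genes in 2 roles are drawn in both, and Cd1d1 is not drawn. Red points are genes with a peak (a summit inside the gene is drawn at 0.1 kb), black bars are medians, the dotted line is the 5 kb limit and the dashed line the 219 kb median of all genes; most Klr genes sit to the right, around their median of 1330 kb.

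Most Klr genes lay in a long stretch of chromosome 6 without a summit. The 25 Klr genes from Klrb1a to Klra2, the NK gene complex, span 128609227 to 131247716 (2.64 Mb). None (0) of the 48 protein-coding genes in this span had a peak, against 11.4% of all genes. The nearest summit before it, 246 kb away, was 134 bp from an end of Rhno1, and the next one after it was 3000 kb away, at 134248812, with Etv6 the gene of the nearest end. Chromosome 6 held 0.643 summits per Mb. Within the complex, Klrd1, which encodes CD94, was 1230 kb from a summit and Klrk1, which encodes the activating receptor NKG2D, 1250 kb. Klrg1, a marker of short-lived effector cells outside the complex, was 529 kb away, and Klrg2, elsewhere on the chromosome, was the Klr gene closest to a summit, at 64.7 kb. Because these genes are neighbours, their 27 results rest on a few stretches of chromosome and are not separate observations. Without the Klr genes, 6 of 117 surface genes (5.13%) had a peak, against 11.4% of all genes.

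The integrin subunits with a peak did not have partners with one. These partners were looked up after the peaks were seen. Itgb7, the partner of Itgae, was 71.4 kb from a summit. Itgb1, the partner of Itga8, was 1740 kb away, and Itga6, the partner of Itgb4, 397 kb. Among the related genes listed beside the set, 2 of 27 integrin adaptors and ligands had a peak (7.41%). These were Vcl, which encodes vinculin (score 10.8, 195 bp downstream of its start), and Pxn, which encodes paxillin (2.77, 14728 bp inside the gene). Of 20 tetraspanins without a CD symbol, 2 had a peak (10.0%): Tspan2 (17.8) and Tspan15 (5.11), with summits 157 and 60 bp downstream of a start. Of 24 lymphocyte surface receptors without a CD or Klr symbol, 1 had a peak (4.17%), Lag3, whose summit was nearer to Ptms. All these shares were below the 11.4% of all genes, on few genes each.

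Base composition of the promoter moved with the peak calls over all genes. The CpG ratio is the number of CG dinucleotides over the number that the C and G content would give by chance order, here in the 300 bases around each start and taken as the highest value where a gene has several starts. Of protein-coding genes with an entry, 1.53% of the 4373 with the lowest ratios (up to 0.236) had a peak, 5.49% of the next 4373 (up to 0.609), 16.6% of the next 4379, and 22.8% of the 4367 with the highest (from 0.849). The check over the whole set of surface genes is void, because 109 of 144 (75.7%) had an entry, under the 80% required. It could be made for families with enough entries. All 24 Klr genes with an entry had ratios up to 0.455 (median 0.196), and all 20 myeloid genes with an entry had ratios from 0.0433 to 0.352 (median 0.161). Of all genes with a ratio up to 0.609, 3.51% had a peak. The 7 tetraspanin CD genes were higher, with a median of 0.604 against 0.61 for all genes.

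For single genes, the ratio was 0.882 for Itga8 and 0.878 for Cd47, both above the 0.849 that opens the highest group. It was 0.336 for Cd37 and 0.164 for Cd80, the genes whose peak lay away from their start. A high ratio did not by itself come with a peak: Cd164, which encodes a sialomucin, had a ratio of 0.982 and its nearest summit was 69.0 kb away. Itgb3bp (0.893) and Itgb1bp1 (0.878) were in the highest group too and had no peak. The part of base composition in the low count of the surface genes was not tested.

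**Figure D4:**
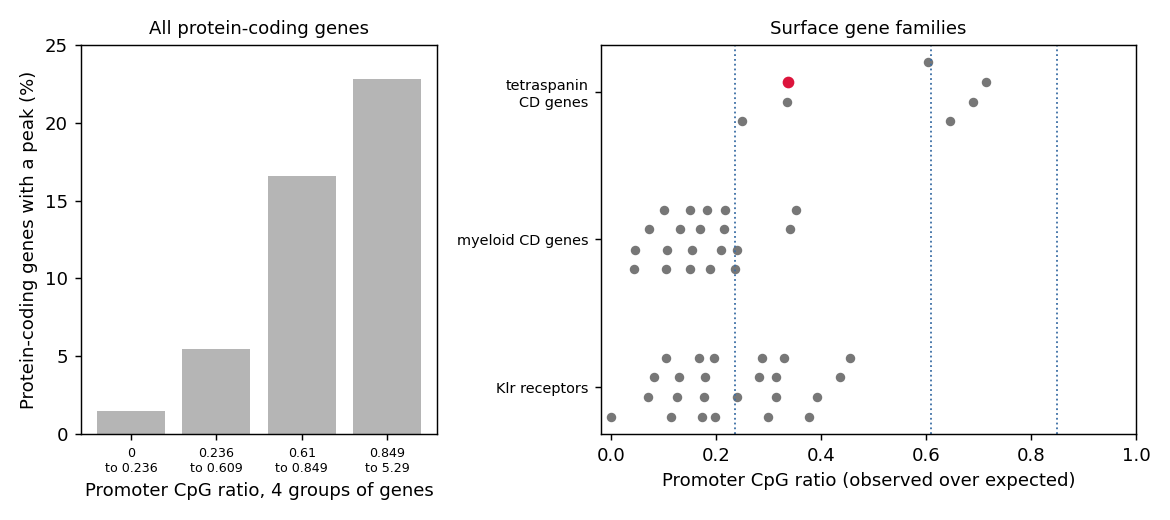
Left, percentage of all protein-coding genes with a peak in 4 groups of rising promoter CpG ratio, rising from 1.53% to 22.8%. Right, the ratio of each Klr, myeloid and tetraspanin CD gene with a promoter entry (points; red is Cd37, the one with a peak; dotted lines are the limits of the 4 groups); Klr and myeloid genes all lie below the middle line, at 0.609.

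Short motifs were counted in the same 300-base windows on both strands, as letters only. The median G+C share was 39.7% for Klr, 46.2% for myeloid and 61.3% for tetraspanin CD genes. It was 57.3% for all genes and 66.3% for all genes with a peak. How far the G+C share accounts for the motif shares was not tested. GGGCGG, the core of GC boxes, was present for 3 of 24 Klr genes (12.5%) and 2 of 20 myeloid genes (10.0%). The shares were 49.2% of all genes and 77.0% of all genes with a peak. Of the 7 tetraspanin CD genes, 5 had it (71.4%), although only Cd37 among them had a peak, away from its start. The letters TATAAA, the core promoter element bound by TBP, were present for 10 Klr genes (41.7%) and 4 of 20 myeloid genes, against 14.8% of all genes. TGTGGT, a core that Runx factors bind, was present for 8 Klr genes (33.3%) and 6 myeloid genes, against 17.2%. GGAAGT, an Ets core, was present for 4 Klr genes (16.7%) and 8 myeloid genes, against 27.7%. The E-box CACGTG was present for 2 Klr genes (8.33%) and 0 myeloid genes, against 8.91%. Among the 7 tetraspanins, TATAAA was present for 1, TGTGGT for 2, GGAAGT for 4 and CACGTG for 1. Over all genes with a peak the shares were 8.02% for TATAAA, 14.2% for TGTGGT, 28.3% for GGAAGT and 13.0% for CACGTG. No motif letters contain another motif. Neighbouring Klr and Cd209 genes share sequence by descent, so these counts are not over independent promoters.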

How the data were processed

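Per the labels' protocols, paired-end reads of 150 bp came from 1 H3K9bhb ChIP library (4 µg of antibody) and 1 input library. The submitters' processing notes name MACS2 2.1.2, Bowtie2 2.3.5, Trimmomatic 0.39 and FastQC 0.11.8, with mm10. Neither their settings nor the treatment of input and duplicates is known from these notes. The deposited list gives 1 position and 1 score per summit, the authors' −log10 p or q value, laid out like a MACS2 summit file; it was used only to rank and filter peaks within the list. No values of the input library were used here. The labels give no dose of BHB.

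Gene spans came from a RefSeq table of GRCm38.p6, which holds no exons. Left out were 108 protein-coding genes that end below 3 Mb on an autosome or X or have no known chromosome. No summit and no promoter entry lies below 3 Mb there (0 of the 108 had an entry). Starts and strands came from RefSeq promoter windows (250 bases before to 50 after a start), given for 80.3% of the other genes. Of these starts, 49.8% fell exactly at an end of the gene's span, so distances to starts and to gene ends can differ. A gene had a peak when any summit lay inside it or within 5 kb. The distance of a gene to the nearest summit is 0 where the summit is inside it; which gene had the nearer end was judged over both ends of each protein-coding gene. Intervals are exact (Clopper-Pearson, 95%). The counting was checked on simulated summits. Genes named are those with a peak, those within 20 kb of a summit, genes listed for CD8+ T cells, nearer neighbours, and related genes with a peak. Others were chosen after their values were seen. The genes and lists were chosen with earlier results of these data known. Software was Python 3.11.15 with matplotlib 3.10.9, scipy 1.17.1, pandas 2.3.3 and numpy 2.4.6. Alternatives covered the flank, the summits and peaks used, the symbol rule and the genes compared.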

Additional observations from a re-analysis of the deposited data

How the results depend on the processing

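The count of surface genes with a peak, 6 of 144, was 5 with no flank or a 2 kb flank, 7 with a 10 kb flank (with Cd164l2) and 4 where no other gene end was nearer. It stayed at 6 with 1 summit per peak, without mitochondrial peaks and peaks scoring over 20, under the whole-symbol rule (6 of 139) and, chosen after seeing the data, with unplaced genes kept (6 of 147) or Klr genes left out. None of these alternatives could change the count. Each of the 6 peaks had 1 summit, none was mitochondrial, and the highest score among them was 10.9. The genes that the other alternatives added or left out had no peak. It was 3 within 2 kb of the gene's own ends, 2 in the top 50% of peaks (Cd37 and Itga8; 5.79% of all genes) and, added after seeing the data, 3 without peaks scoring 3 or less (Cd37, Itga8 and Itgae; 9.39%), so Cd47, Cd80 and Itgb4 rest on low scores. Genes with their own end nearest were 4, or 3 (without Cd47) with ends of all annotated genes. The share of summits near gene ends, 83.3%, was 100% with a 5 kb window (87.5% of all summits). Over 72 counts under the alternatives for roles with a peak, 58 were within 1.5 times the main count and 14 were not. Roles with no peak could hardly move and are not counted. The 72 do include all the alternatives named above that could not change a count, and Cd37 enters under 2 roles, so the 58 overstates stability. No paired analysis was possible because there is 1 ChIP library and no test between groups. The single library and the unknown depth per peak limit every count.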
